A study of Homo sapiens with 6 samples.

Results

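Levels in the uninduced APE1 lines were compared with levels in the uninduced vector line, over 11619 of the 15492 rows (transcript clusters) of an Affymetrix exon array table. All 3 lines derive from HEK293, an established human embryonic kidney cell line with an abnormal chromosome set. The vector line is HEK293/pcDNA-FRT with the empty vector, the wtAPE1 line carries wild-type APE1 and the ubAPE1 line carries a fusion of ubiquitin to APE1, the insert being under tet-on control. Every line was grown with puromycin at 1 µg per ml, and none of the 3 columns compared had received doxycycline. The table has 6 columns in all, because each line was also measured after doxycycline, the inducer of the insert, had been present for 16 h (2 µg per ml). Per the labels each column stands for 3 biological replicates that the authors averaged, so the spread between cultures is not in the values. Each construct is represented by 1 derived line, and whether a line is a clone or a pool is not given in the sources used here. With that, the insert and the history of a line cannot be told apart, and neither can fewer cells of a kind and less RNA per cell.

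APE1, encoded by APEX1, cuts DNA at abasic sites in base excision repair and also acts as a redox factor for several transcription factors. Lines derived from one parental culture can differ from each other before any transgene is switched on, because each passes through selection and outgrowth. A comparison without inducer measures that baseline, together with any leak of the insert. HEK293 cells show a mixture of kidney, epithelial and neuronal gene expression, and they are known for an unstable karyotype.

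A row was kept where its mean over the 6 columns was at or above the 25th percentile of row means, 5.03 on the log2 scale. The rows on either side of that limit had means of 5.0258 and 5.0254. The columns differed in their medians, at 6.28 in the vector line, 6.07 in wtAPE1 cells and 6.21 in ubAPE1 cells, and with doxycycline at 6.23, 6.12 and 6.07. The median difference of the kept rows (-0.11 for the mean of both APE1 lines) was therefore subtracted, and every difference below is log2 and relative to the median row, whereas a level is as deposited. Of the kidney transcription factors, WT1 stood between 6.35 and 6.59 over the 6 columns and PAX2 between 5.98 and 6.24. PAX8 was under the limit in the vector line (4.93, and 4.91 with doxycycline) and between 5.09 and 5.25 in the APE1 lines. The keratin KRT8 stood between 10.2 and 10.5, but the epithelial cadherin CDH1 was under the limit, at 4.76 in the vector line and at 4.20 and 4.07 in the lines with wtAPE1 and ubAPE1. Of 7 blood markers, SPI1, CD3E, CD14, HBB and TYROBP were also under it, while CD68 (6.20 to 6.86) and CD8A (5.47 to 5.82) were above it. Of 4 endothelial genes with a row only CLDN5 was kept, at 6.39 to 6.63 over the 6 columns. CDH5 and VWF were under the limit.

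The transgene target was near its vector level before induction. APEX1 had levels of 9.54 in the vector line, 9.50 in wtAPE1 cells and 9.82 in ubAPE1 cells, and the ubAPE1 column was the highest of these. The mean difference was 0.24, or 1.18-fold. With doxycycline the levels were 9.66, 10.67 and 10.58, a mean difference of 1.05, and there both APE1 lines lay above the vector line. UBB, which encodes the ubiquitin that the fusion also contains, differed by 0.16 without doxycycline.

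With 1 column per group the uninduced difference has no replicate check, so it is described by size. The mean over both APE1 lines was at least 1.5-fold higher than the vector line in 88 rows (0.757% of 11619) and at least 1.5-fold lower in 396 rows (3.41%). Without centring on the median row these counts were 36 and 658, so the excess of lower rows did not come from the centring. Of the higher rows 67 have 1 gene symbol, and of the lower rows 349. A difference of 2-fold was reached by 12 higher and 100 lower rows. In the wtAPE1 line alone 1.96% of rows were higher and 5.14% lower by 1.5-fold, and in the ubAPE1 line 1.08% and 2.93%. These last 2 comparisons share the vector column, so their likeness is no evidence that both lines differ from it.

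The same contrast among the 3 treated columns uses no column of the uninduced one, although it compares the same lines and includes induced APE1. There 1.33% of rows were higher and 6.32% lower by 1.5-fold. The treated difference also varied by chromosome, as described below. Of the 396 rows lower without doxycycline, 383 had the same sign with it, and 265 were again lower by 1.5-fold, which is 66.9% of the uninduced and 36.1% of the treated list. Of the 88 higher rows, 78 had the same sign and 40 were again past 1.5-fold, 45.5% of the uninduced and 25.8% of the treated list. Across the 11619 rows the 2 differences had a Pearson correlation of 0.65, given as a description because rows of 1 array are not independent. A limma fit over all 6 columns, with line and doxycycline as terms, called 286 rows higher (2.46%) and 641 lower (5.52%) in the APE1 lines at an adjusted p of 0.05. In columns as deposited, without centring, it called 23 higher and 367 lower. Without the wtAPE1 line the calls were 77 and 307, without the ubAPE1 line 1195 and 1101, and in the uninduced columns alone 28 and 155, of which 181 were among the 927 calls of the 6-column fit. The fit assigned every row the same SE of 0.154. A p-value, adjusted by the Benjamini-Hochberg method, therefore follows only the size of the 6-column line difference, which includes the treated state. A row's own evenness over the doxycycline states does not enter it, and neither does the spread between cultures. Uneven rows were thus called too, such as HOXC11 (1.39 without and 0.19 with doxycycline) and CCT8L2 (1.06 and -0.11). "Called" below refers to this fit.

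**Figure D1:**
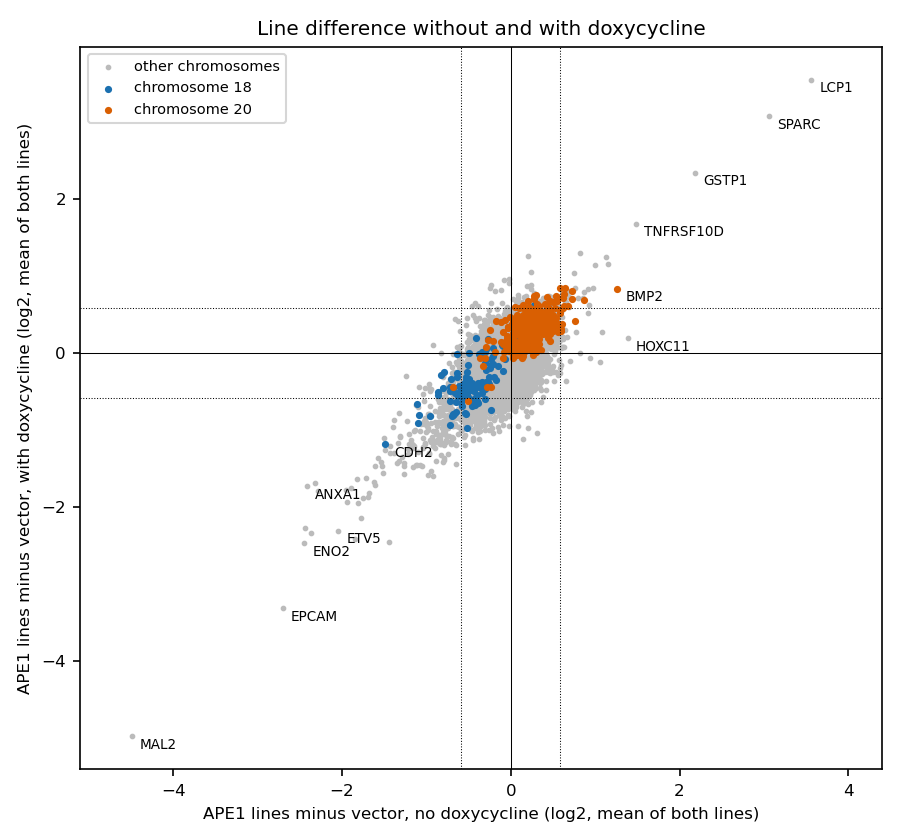
Each point is a gene, with the difference between the APE1 lines and the vector line in log2 without doxycycline on the x axis and with it on the y axis, and dotted lines at 1.5-fold. MAL2 and EPCAM lie far down and LCP1, SPARC and GSTP1 far up in both states, HOXC11 is high only along the x axis (1.39 against 0.19), and genes of chromosomes 18 and 20 lie mostly below and above 0.

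LCP1 encodes L-plastin, an actin-bundling protein typical of blood cells. Its levels were 4.21 in the vector line, 7.35 in wtAPE1 cells and 7.97 in ubAPE1 cells, so both APE1 lines lay above the vector line and the mean difference was 3.56. It was 3.55 with doxycycline. SPARC, a secreted collagen-binding matrix protein, followed at 4.57, 7.30 and 7.72, a difference of 3.06, and 3.07 with doxycycline. In the vector line both genes were under the 25th percentile of row means, and in the APE1 lines both were above the column medians. The table used here has no detection calls, so a level under that limit is not shown to be above background, and no fold is given against it.

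MAL2, a membrane protein of apical transport in epithelial cells, had levels of 8.72 in the vector line, 4.20 in wtAPE1 cells and 4.03 in ubAPE1 cells. The difference was -4.49, and -4.97 with doxycycline; the levels in the APE1 lines were under the 25th percentile of row means, so its size carries the same limit. EPCAM, an epithelial adhesion molecule, had 8.03, 5.12 and 5.30, a difference of -2.70, and -3.31 with doxycycline. In that treated state its levels in the APE1 lines, 4.90 and 4.91, were also under the 25th percentile of row means. Both APE1 lines lay below the vector line for both genes, at similar levels to each other.

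**Figure D2:**
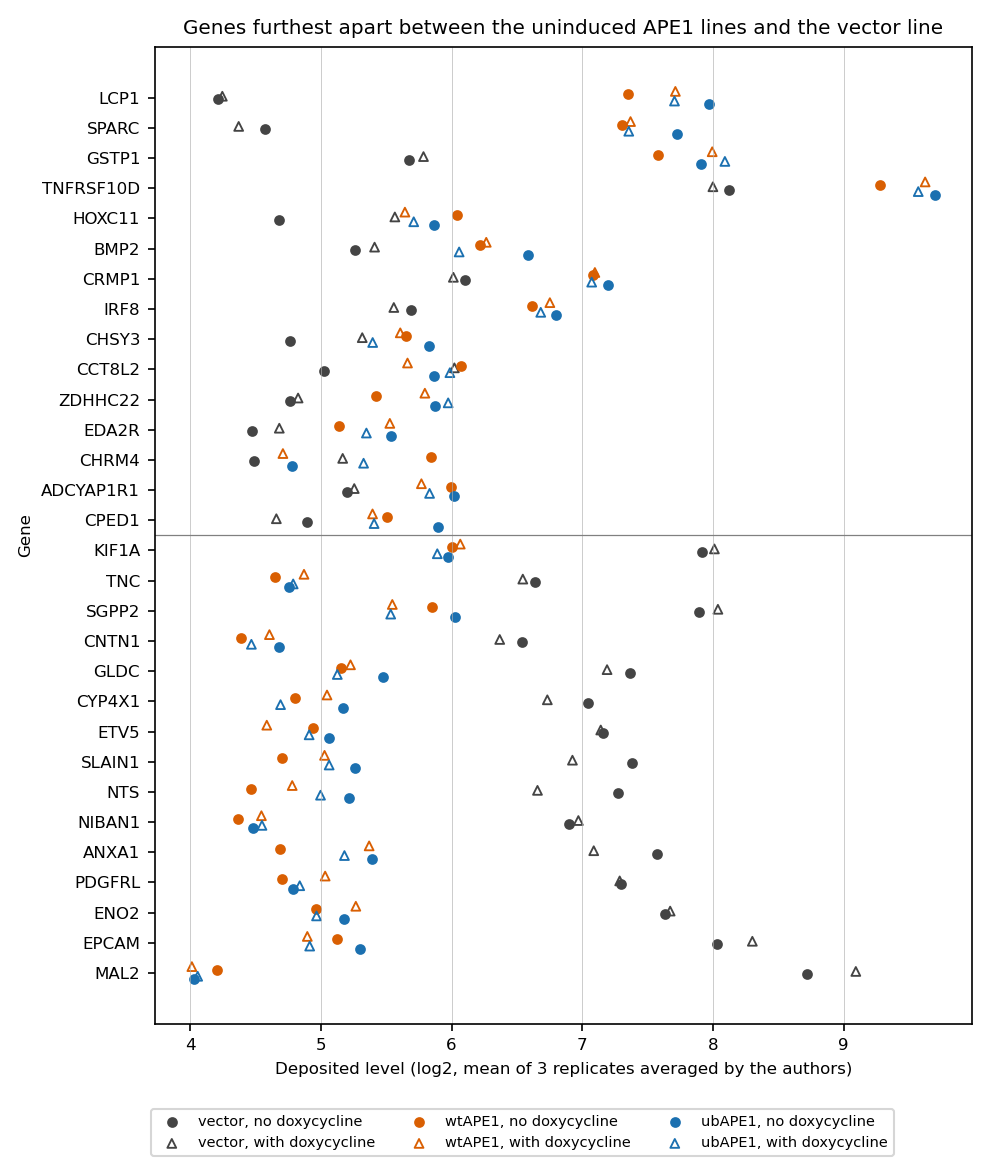
Deposited log2 levels of the 15 genes furthest above and the 15 furthest below the vector line in the uninduced APE1 lines, with 1 point per line and doxycycline state and no error bars, since replicates were averaged. Filled points are uninduced and open triangles treated; for LCP1 the vector line stands at 4.21 and the APE1 lines at 7.35 and 7.97, and for MAL2 the order is turned.

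Among the other rises, GSTP1, a glutathione transferase of detoxification, had levels of 5.67 (vector), 7.58 (wtAPE1) and 7.91 (ubAPE1), a difference of 2.19 (2.34 with doxycycline). TNFRSF10D, a decoy receptor for the death ligand TRAIL, had 8.12, 9.28 and 9.70, a difference of 1.48 (1.68). Both genes were higher in each APE1 line than in the vector line in both states. CRMP1, a protein of axon guidance signalling, was higher by 1.15 in both states, and IRF8, a transcription factor of myeloid and B cells, by 1.13 and 1.24 without and with doxycycline. EDA2R, a receptor for ectodysplasin, was higher by 0.97 and 0.84, and ADCYAP1R1, a neuropeptide receptor, by 0.93 and 0.63. ZDHHC22 (1.00 and 1.14) and CPED1 (0.92 and 0.83) kept their size as well.

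Several of the largest rises were not as large in the treated columns. HOXC11, a homeobox factor of posterior patterning, had levels of 4.68 in the vector line, 6.04 in wtAPE1 cells and 5.87 in ubAPE1 cells, but with doxycycline the vector line stood at 5.57, near the APE1 lines at 5.64 and 5.71. The difference was thus 1.39 without and 0.19 with doxycycline. CHSY3, which builds chondroitin sulfate chains, went from 1.08 to 0.27, and CCT8L2 from 1.06 to -0.11. CHRM4, a muscarinic acetylcholine receptor, was high in the wtAPE1 line only, with differences of 1.57 there and 0.33 in the ubAPE1 line, and its mean difference was -0.07 with doxycycline. All these genes were at 5.02 or less in the uninduced vector column.

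The largest falls beyond MAL2 and EPCAM were more even across states, but many reached levels under the row limit of 5.03. In both uninduced APE1 lines PDGFRL, NIBAN1 and CNTN1 were under it. In the uninduced wtAPE1 line alone ENO2, ANXA1, NTS, SLAIN1 and CYP4X1 were under it. The sizes of these falls and their evenness carry the same limit as MAL2, whereas GLDC, SGPP2 and KIF1A stayed above it. ENO2, the neuronal form of the glycolytic enzyme enolase, had levels of 7.63, 4.96 and 5.17 and a difference of -2.45 (-2.47 with doxycycline). PDGFRL was at -2.44 and NIBAN1, a stress-induced protein, at -2.36, with -2.27 and -2.34 in the treated columns. ANXA1, a phospholipid-binding annexin, had 7.57, 4.69 and 5.39, with both APE1 lines below the vector line and the wtAPE1 line lowest; the difference was -2.42, and -1.73 with doxycycline. NTS, the neuropeptide neurotensin, was at -2.32 and -1.68, and SLAIN1, a microtubule plus-end protein, at -2.29 and -1.80. GLDC, the decarboxylase of the glycine cleavage system, was at -1.94 and -1.93. CYP4X1, a cytochrome P450, was at -1.95 and -1.78, CNTN1, a neural adhesion protein, at -1.89 and -1.75, SGPP2, a sphingosine phosphate phosphatase, at -1.84 and -2.41, and KIF1A, a motor of synaptic vesicle transport, at -1.82 and -1.95.

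Gene lists of cell identity showed falls in a minority of their members. Of the 20 kept genes for epithelial adhesion, keratins and apical transport, 7 were at least 1.5-fold lower and 0 higher, against 3.41% and 0.757% of all rows, and all 7 were called lower. Their median difference was -0.29 (-0.38 with doxycycline), while the median of all rows is 0 by centring. With a limit at the 50th percentile of row means 4 members were lower and the median was -0.44. After MAL2 and EPCAM came PKP2, a desmosomal plakophilin, at 7.29, 5.40 and 5.59 (-1.68), and SPINT2, an inhibitor of surface serine proteases, at 8.11, 6.46 and 6.32 (-1.61). KRT19, a keratin of simple epithelia, was at -0.98. The desmosomal cadherins DSC2 (-0.96) and DSG2 (-0.65) lie on chromosome 18, which is described below. For DSG2 the limma adjusted p over both states was 0.00339. Of the 13 kidney lineage and tubule genes 10 were above 0 and 0 passed 1.5-fold. With doxycycline 1 was higher and 1 lower by 1.5-fold. The endocytic receptor LRP2 was nearest among the lower ones (-0.55) and was called lower, and the lineage factors LHX1 (0.38) and SIX2 (0.37) were called higher. With doxycycline LRP2 was at -1.06 and LHX1 at 0.62. In that state LRP2 was under the row limit in the APE1 lines, at 4.88 and 4.84.

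Mesenchymal and neuronal lists also held lowered genes, with 3.41% of all rows lower and 0.757% higher by 1.5-fold. Of 10 mesenchymal genes CDH2, the neural cadherin, was lower, at -1.48, with levels of 9.14, 7.31 and 7.78. Over both states its limma adjusted p was 1.42e-14, and it too lies on chromosome 18. TPM2, a tropomyosin, was called higher at 0.53, and the intermediate filament gene VIM (-0.52, and -0.09 with doxycycline) was not called. Of 9 neuronal genes 4 were lower by 1.5-fold: ENO2, GPM6A (-1.78), the neurofilament gene NEFL (-0.78) and the adhesion molecule NCAM1 (-0.72). The list's median was -0.43, but 0.13 with no row filter, since only 9 of the 20 genes with a row were kept. SYP, of synaptic vesicles, was higher at 0.82 without doxycycline and at 0.00 with it. Of 4 kept blood cell markers IRF8 alone was past 1.5-fold, although LCP1 is also a gene of blood cells.

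**Figure D3:**
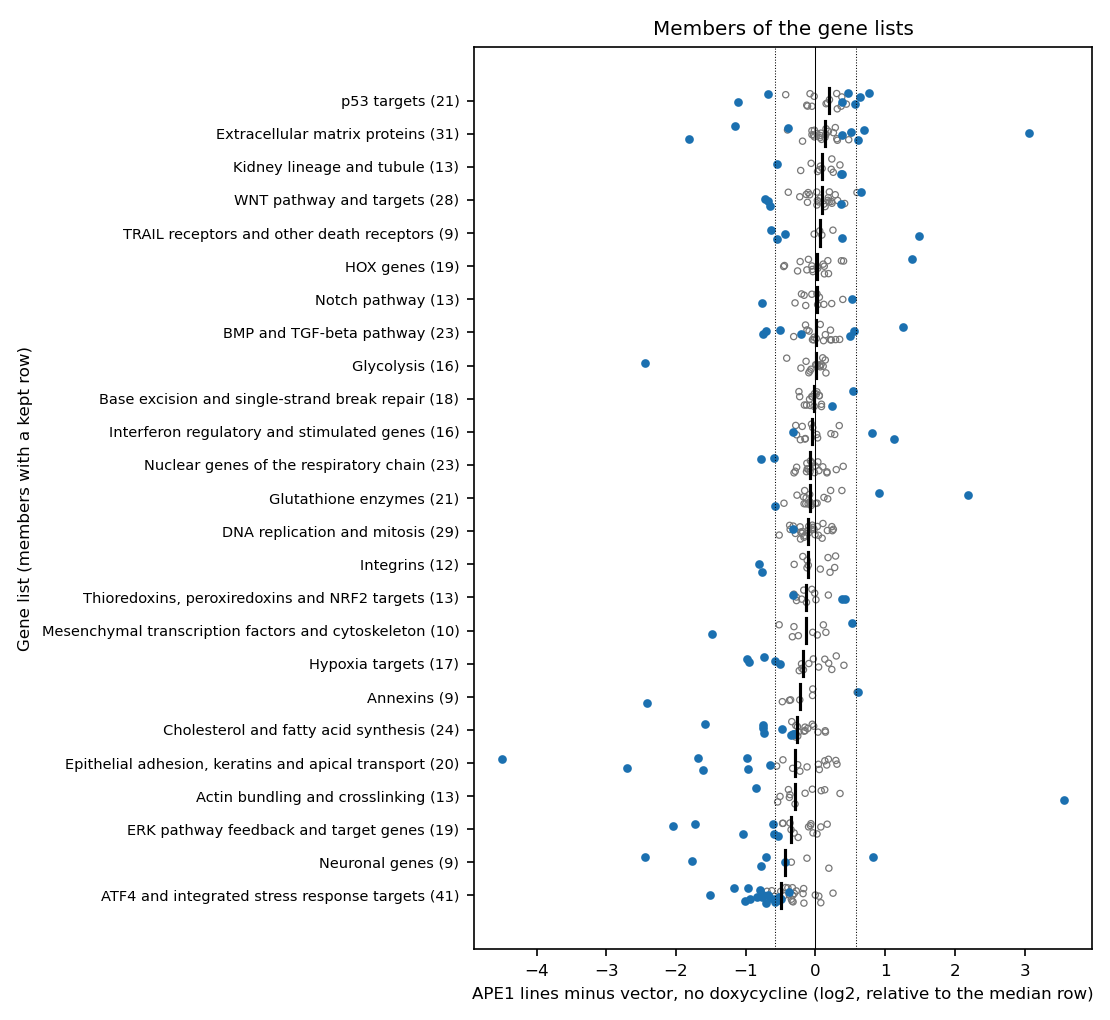
Uninduced differences (log2, APE1 lines minus vector line) of the members of each list with at least 9 kept genes, 1 point per gene (filled where called by limma), a black bar at each median and dotted lines at 1.5-fold. The ATF4 list has the lowest median (-0.50), and single genes such as LCP1, SPARC and MAL2 stand far from the rest of their lists.

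Genes of the extracellular matrix and its receptors moved both ways. Of 31 matrix genes 3 were higher and 2 lower by 1.5-fold, with 5 called higher and 3 lower, and their median was 0.14. The shares over all rows were 0.757% higher and 3.41% lower by 1.5-fold, and 2.46% called higher and 5.52% called lower. Beside SPARC, the fibrillar collagen COL3A1 (0.69) and the microfibrillar COL6A1 (0.61) were higher. TNC, the adhesion-modulating tenascin C, had levels of 6.63, 4.65 and 4.76 and a difference of -1.82, and the laminin chain LAMA4 had 7.91, 6.39 and 6.88 and a difference of -1.16. In both APE1 lines TNC was under the row limit of 5.03, so the size of its fall carries that limit. Of 12 integrins, which bind laminin and collagen at the cell surface, ITGA6 (-0.80) and ITGA2 (-0.77) were lower, with -1.41 and -1.16 in the treated columns, and both were called. Among 13 actin bundling genes LCP1 was the only one higher, and PLS1, another plastin, was lower (-0.85).

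A shift in most members was seen among targets of ATF4, the transcription factor of the integrated stress response, which turns on genes for amino acid synthesis and uptake and for tRNA charging when amino acids are short or proteins misfold. It binds, with partners of the C/EBP family, a composite element whose core can be written TGATGNAAN. Of 41 kept genes 38 were below 0, 15 were at least 1.5-fold lower and 0 higher, and 19 were called lower. Over all rows 3.41% were at least 1.5-fold lower and 5.52% were called lower. Like the other lists, this list was chosen with earlier results of these data known, so its counts are a description. The list's median was -0.50 without doxycycline and -0.47 with it, at -0.53 in wtAPE1 cells and -0.45 in ubAPE1 cells. The mRNA of ATF4 itself was not lower (0.25, with a limma adjusted p over both states of 0.151).

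The element was searched on both strands of the 250 bases before each start in RefSeq promoters (GRCh38.p14), which were found for 36 of the 41 genes. It was in 8 of the 36 (22.2%), against 2.21% of the 7860 genes with a kept row and a promoter, and 3.87% of all 27305 genes in the promoter table. The list was drawn up as targets of ATF4, so this higher share is a property of the list and not a result about these lines. Among the 14 lowered members with a promoter it was in 3 (21.4%), a share close to that of the list as a whole. These 3 promoters are shown because their genes were lowered and carry the letters; a match of letters is not a measured binding site. They run 5′ to 3′ on the gene's strand, with the match in capitals, and in CHAC1 the element reads on the opposite strand. CHAC1 is at chr15:40953221-40953470 (plus strand), ASNS at chr7:97872409-97872658 (minus strand) and ATF3 at chr1:212565157-212565406 (plus strand).
CHAC1: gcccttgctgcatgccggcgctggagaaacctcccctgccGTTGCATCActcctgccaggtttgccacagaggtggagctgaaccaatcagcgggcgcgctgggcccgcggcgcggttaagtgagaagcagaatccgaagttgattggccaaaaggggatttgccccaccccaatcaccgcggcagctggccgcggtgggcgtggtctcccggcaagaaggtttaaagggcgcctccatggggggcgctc
ASNS: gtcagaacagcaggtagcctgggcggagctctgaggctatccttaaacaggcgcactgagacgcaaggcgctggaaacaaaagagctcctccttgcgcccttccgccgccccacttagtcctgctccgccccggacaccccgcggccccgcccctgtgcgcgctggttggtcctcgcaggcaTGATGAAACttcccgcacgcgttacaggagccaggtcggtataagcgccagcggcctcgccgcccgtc
ATF3: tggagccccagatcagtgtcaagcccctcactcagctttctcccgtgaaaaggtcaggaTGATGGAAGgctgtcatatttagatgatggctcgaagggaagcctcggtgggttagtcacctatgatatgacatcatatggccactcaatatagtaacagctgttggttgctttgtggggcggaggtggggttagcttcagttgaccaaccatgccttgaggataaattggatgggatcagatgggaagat
The other matches lay before AARS1, CEBPG, IARS1, GARS1 and SLC1A5, which differed by -0.45, -0.43, -0.33, -0.33 and -0.27. Of the other motifs searched, CACGTG was in 13.9% of the 36 promoters and 11.4% of those of kept genes, TGACTCA in 5.56% and 3.89%, and TGACGTCA in 0 of 36 and 3.65%.

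CHAC1, which degrades glutathione and is a late target of the stress response, had levels of 6.72 in the vector line, 5.09 in wtAPE1 cells and 5.11 in ubAPE1 cells. Both APE1 lines lay below the vector line, at a mean difference of -1.51 (-1.11 with doxycycline). ASNS, asparagine synthetase, had 9.24, 8.20 and 8.51, and PSAT1, of serine synthesis, 9.90, 8.50 and 9.06. Their differences were -0.77 and -1.01, and for both the ubAPE1 line lay between the other lines. CTH, which makes cysteine, was at -0.97 and PCK2, a mitochondrial gluconeogenic enzyme, at -0.75. Amino acid carriers were lower too: SLC1A4 was at -1.16, SLC7A11, which imports cystine, at -0.79, SLC6A9 at -0.65 and SLC7A5 at -0.63. The regulators DDIT4 (-0.84) and SESN2 (-0.68), both restraining growth signalling, the secreted STC2 (-0.94), the lipoprotein receptor VLDLR (-0.71) and the factor ATF3 (-0.59) completed the lower group with the tRNA synthetase WARS1 (-0.69). WARS1 and SLC7A5 were not called. CEBPB (0.08) and CBS (0.05) were, with ATF4, the members above 0.

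**Figure D4:**
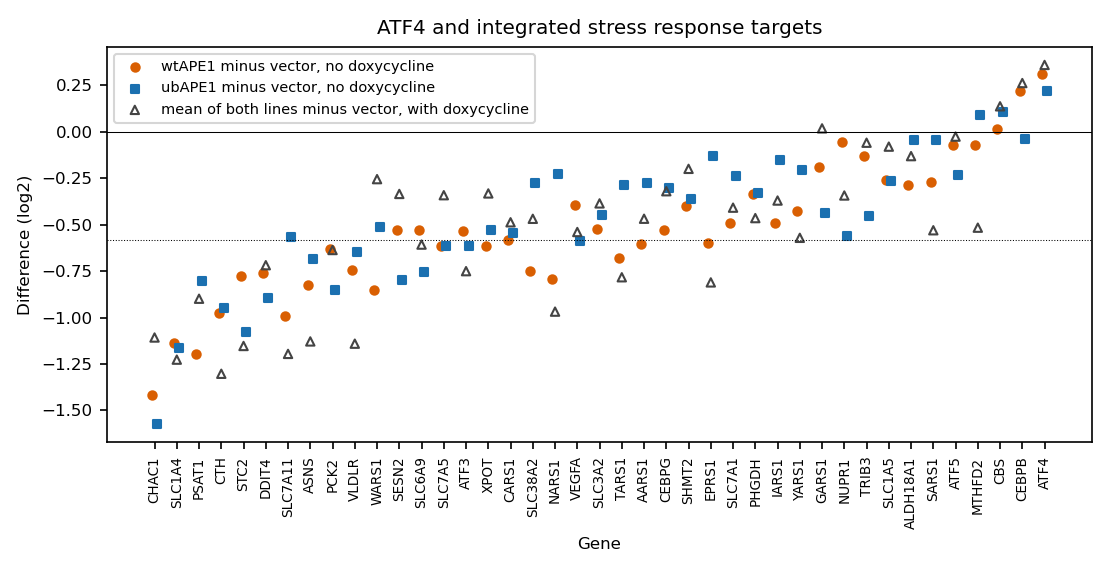
Differences (log2, APE1 lines minus vector line) of the 41 kept ATF4 targets, with filled points for the wtAPE1 and ubAPE1 lines without doxycycline and open triangles for the mean of both with it. Genes are ordered by the uninduced mean, from CHAC1 (-1.51) to ATF4 (0.25), and the dotted line marks 1.5-fold lower.

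Feedback genes of the ERK pathway, which growth factor signalling switches on, included some of the larger falls. Of 19 kept genes 5 were lower by 1.5-fold and 0 higher, and 6 were called lower, the sixth being SPRY1 (-0.54), against 3.41% and 5.52% of all rows; the median was -0.35. With the filter at the 50th percentile 0 members were lower, as SPRY2 and SPRED2 then stood at -0.58 and -0.57 and the ETS factors and DUSP6 were not kept. The ETS factors ETV5 and ETV4 led, with ETV5 at 7.16, 4.94 and 5.06 (-2.04) and ETV4 at 7.26, 5.33 and 5.51 (-1.72). In wtAPE1 cells ETV5 was under the row limit of 5.03, so the size of its fall carries that limit. The phosphatase DUSP6, which inactivates ERK, was at 6.87, 5.65 and 5.80 (-1.03). For these 3 genes both APE1 lines lay below the vector line and close to each other. The inhibitors SPRY2 (-0.61) and SPRED2 (-0.59) were lower by less. The list's median was -0.16 in wtAPE1 cells and -0.47 in ubAPE1 cells.

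Metabolic lists had a few lowered members each. Of 24 genes for cholesterol and fatty acid synthesis 21 were below 0 and 4 were lower by 1.5-fold: the desaturase FADS2 (-1.58, at levels of 7.91, 6.18 and 6.26), the sterol reductases TM7SF2 (-0.75) and DHCR7 (-0.75), and HMGCS1 of the mevalonate pathway (-0.74). The fit called 8 lower and 0 higher, while 3.41% of all rows were lower by 1.5-fold and 5.52% were called lower. Of 17 hypoxia targets 3 were lower, namely the matrix cross-linking oxidase LOX (-0.98), the clock repressor BHLHE40 (-0.95) and the collagen prolyl hydroxylase P4HA1 (-0.74). Of 16 glycolytic genes only ENO2 was past 1.5-fold. Of 23 nuclear genes of the respiratory chain, SDHA (-0.78) and SDHC (-0.59), both of complex II, were lower, a count to be read against 3.41% of all rows. SDHC was at -0.996 in wtAPE1 cells and -0.16 in ubAPE1 cells. Among 21 glutathione enzymes GSTP1 and the secreted peroxidase GPX3 (0.92) were higher and MGST3 (-0.59) was lower. Of 13 thioredoxin, peroxiredoxin and NRF2 target genes 0 passed 1.5-fold, while HMOX1 (0.42) and SRXN1 (0.38) were called higher and TXNIP (-0.32) lower.

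Developmental signalling lists were mixed. Their counts are to be read against 0.757% of all rows higher and 3.41% lower by 1.5-fold. BMP2, a ligand of the BMP pathway, had levels of 5.26, 6.22 and 6.58, both APE1 lines above the vector line, and a difference of 1.26 (0.83 with doxycycline). Over both states its limma adjusted p was 2.18e-10. BMP2 lies on chromosome 20. Of the 23 BMP and TGF-beta genes, the ligand TGFB2 (-0.75) and the inhibitor of differentiation ID2 (-0.72) were lower, while the inhibitory SMAD6 (0.55) and the signal transducer SMAD9 (0.50) were called higher without reaching 1.5-fold. Of 28 WNT genes the antagonist SFRP1 (0.65) and the receptor FZD7 (0.60) were higher, and RNF43 (-0.73), LGR5 (-0.68) and FZD6 (-0.65), all membrane proteins of the pathway, were lower; FZD7 was at 0.07 with doxycycline and was not called. Of 13 Notch genes the target HEY2 was at -0.77. Of 19 HOX genes HOXC11 alone passed 1.5-fold.

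Receptors of cell death, p53 targets and repair genes gave short lists. Among all rows 0.757% were higher and 3.41% lower by 1.5-fold. Of 9 death receptor genes TNFRSF10D was higher and TNFRSF12A (-0.64) lower, and TNFRSF10B, a signalling TRAIL receptor, was called higher at 0.38. Of 21 p53 targets, BAX (0.76) and TIGAR (0.64) were higher and PMAIP1 (-1.11) and SESN2 (-0.68) lower; the median was 0.20 without and 0.01 with doxycycline, and 0.37 without it under the filter at the 50th percentile. PMAIP1 lies on chromosome 18, which is described below. The level of TIGAR was 6.32 in the vector line, 6.35 in wtAPE1 cells and 7.33 in ubAPE1 cells, so only the ubAPE1 line stood apart in the deposited levels. Of 16 interferon genes IRF8 and IFITM1 (0.82) were higher. Of 9 annexin genes and their partners ANXA6 (0.61) and S100A6 (0.60) were higher and ANXA1 lower, S100A6 being at -0.16 with doxycycline. Of 18 genes for repair of base damage and of breaks in a strand 0 passed 1.5-fold; APEX2 (0.54), a relative of APEX1, was called higher, as was APEX1 over both states. Of 29 genes of replication and mitosis 0 passed 1.5-fold and the median was -0.10, but 0.047 without the wtAPE1 line.

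The APE1 lines also differed from each other. RPL41 was at 0.10 in wtAPE1 cells and -1.02 in ubAPE1 cells, GPR78 at 0.35 and -0.73, TNFRSF13C, a B-cell receptor for the survival factor BAFF, at 0.98 and -0.04, and HPD, of tyrosine breakdown, at 0.47 and -0.52. In the other direction LLPH was at -0.70 and 0.38, SPCS3, a signal peptidase subunit, at -0.86 and 0.10, FBXL21P at -0.20 and 0.71, and TPMT, a thiopurine methyltransferase, at -0.98 and -0.10. COX20, a complex IV assembly factor, was at -2.04 and -1.08 on this row, but its brighter row differed by 0.63, so its rows disagree. No value here has a replicate check, and most of these differences were not seen in the treated columns. There RPL41 was at 0.11 and 0.31, GPR78 at 0.17 and 0.16, TNFRSF13C at 0.45 and 0.82, and HPD at 0.30 and 0.63. LLPH was at 0.26 and 0.18, SPCS3 at -0.52 and -0.81, FBXL21P at 0.06 and -0.30, and TPMT at -1.09 in both lines. The difference also followed gene length in the wtAPE1 column: with genes in 4 classes of genomic length, the median went from 0.15 in the shortest to -0.14 in the longest class, against -0.03 to 0.00 in the ubAPE1 line. The mean of both APE1 lines with doxycycline went from 0.13 to -0.18. With this length trend removed, the medians of the ATF4 list (-0.51), of the epithelial list (-0.25) and of chromosomes 18 (-0.41) and 20 (0.22), all described in their own paragraphs, kept their sign.

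Genes of 2 chromosomes were shifted as a group, a pattern looked at after values had been seen. On chromosome 18, 118 of 131 rows with 1 symbol (90.1%) were below 0, with a median of -0.46 (-0.53 in the wtAPE1 line, -0.33 in the ubAPE1 line and -0.42 with doxycycline). On this chromosome 31 rows were lower by 1.5-fold and 0 higher, and 50 were called lower and 3 higher. On chromosome 20, 265 of 299 rows (88.6%) were above 0, with a median of 0.23 (0.28 and 0.21 in the wtAPE1 and ubAPE1 lines, and 0.32 with doxycycline), and 15 rows were higher and 1 lower by 1.5-fold. The fit called 67 of its rows higher and 2 lower. Over all rows with 1 symbol 50.2% were below 0. Of all 11619 kept rows 3.41% were lower and 0.757% higher by 1.5-fold, and 5.52% were called lower and 2.46% higher. The medians of the other 21 chromosomes lay between -0.08 and 0.12 without doxycycline, but between -0.32 and 0.19 with it. In the treated columns 80.2% of the chromosome 18 rows were below 0, against 81.3% on chromosome 4. There 94.3% of the chromosome 20 rows were above 0, against 84.8% on chromosome 19.

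**Figure D5:**
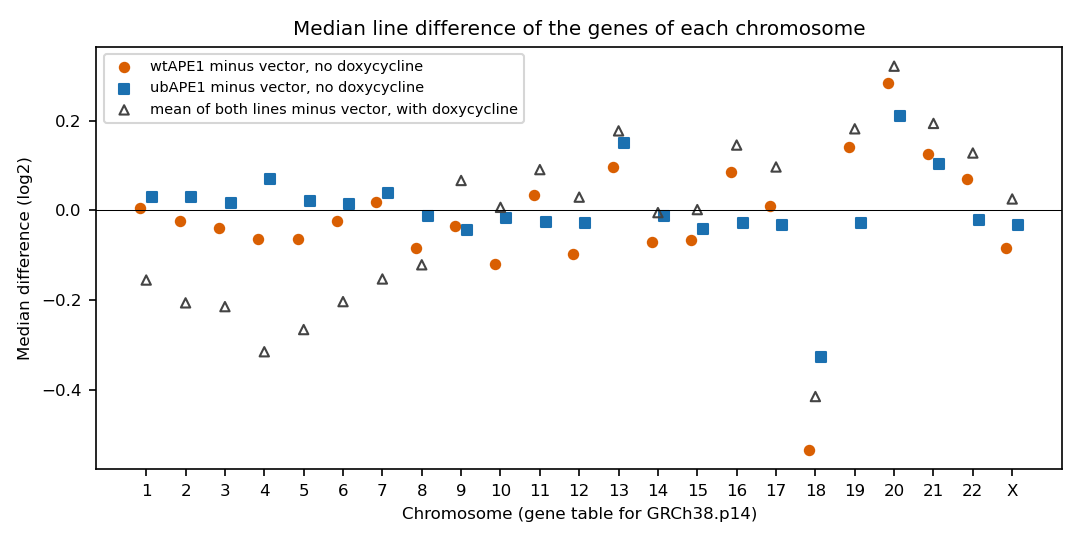
Median difference (log2, against the vector line) of rows with 1 symbol on each chromosome, with filled points for each uninduced APE1 line and open triangles for the mean of both lines with doxycycline. Chromosome 18 lies lowest (-0.53 and -0.33 in the APE1 lines) and chromosome 20 highest (0.28 and 0.21).

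Without doxycycline the shift ran along both chromosomes. In 482 segments of about 20 neighbouring rows, all 7 segments of chromosome 18 had medians below 0, from -0.58 to -0.24. All 15 of chromosome 20 had medians above 0, from 0.13 to 0.34. With doxycycline the last segment of chromosome 18, from ZNF407 to PARD6G, was at -0.03. The segment values that follow are again without doxycycline. Of 10 segments below -0.3, 6 lay on chromosome 18 and 2 on chromosome 5, from BASP1 to WDR70 (-0.37) and from EGFLAM to MOCS2 (-0.43). The others were on chromosome 12, from FAR2 to PRICKLE1 (-0.33), and on X, from PUDP to SCML1 (-0.32). The only segment above 0.3 lay on chromosome 20, and the highest elsewhere was at 0.25, on chromosome 13 from NAXD to CHAMP1. Chromosome 13 had 68.7% of its rows above 0 (median 0.12, with 9.64% called higher) and chromosome 21 had 70.9% (median 0.11, with 7.27% called higher), so shifts above 0 were not limited to chromosome 20. On chromosome 18 the lower genes included CDH2, PMAIP1, the ubiquitin ligase gene NEDD4L (-1.10), the myosin gene MYO5B (-1.09), the haem synthesis gene FECH (-0.87) and TCF4 (-0.86). On chromosome 20 the higher genes included BMP2, the mitochondrial nuclease gene MGME1 (0.73), the helicase gene MCM8 (0.73), CTNNBL1 (0.68), and SNRPB2 and RAE1 (each 0.64), while the elongation factor gene EEF1A2 was lower (-0.69). CHMP4B was at 0.87 on its brighter row and 0.08 on the other. DNA copy number was not measured in these samples.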

How the data were processed

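The table holds log2 levels per transcript cluster for 6 groups, deposited by the authors, who averaged 3 replicates per group, per the labels' design text. Their log2 scale follows from their range; how probes were summarised and normalized was not given in the sources used here. Build hg 18 is named in the submitters' processing notes, and the gene table is of GRCh38.p14. Of 15492 rows 12616 had 1 symbol, 2031 several and 845 none, and 12602 matched the gene table. The 11619 kept rows included 9653 with 1 symbol, for 9569 genes; a gene in a list is its brightest kept row. Array number limits the precision: 1 averaged column per group.

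Differences were taken relative to the median row and described at 1.5-fold. The fit used limma 3.58.1 (R 4.3.3; lmFit and eBayes) on columns centred on their medians, with line and doxycycline as terms and 2 residual degrees of freedom, and Benjamini-Hochberg adjustment over 11619 rows. The prior degrees of freedom were infinite, so all rows share a spread. The fit was also run on simulated data with the same noise in every row, as the fit itself assumes. That run cannot show whether calls hold in these data.

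Named genes were APEX1, UBB, LCP1, SPARC, MAL2 and EPCAM, the 15 largest rises and 15 largest falls that had the same sign in both lines, the 5 largest differences each way between the APE1 lines, and up to 8 members of each of 29 lists past 1.5-fold, or else the 2 largest; further list members and the chromosome genes were chosen after their values were seen. The members and lists were chosen with earlier results of these data known. Alternatives were other row filters, no centring, quantile normalization, a floor at the 10th percentile, removal of a length trend, leaving out each line, other terms, a 2-fold limit and the mean of a gene's rows.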

Additional observations from a re-analysis of the deposited data

Results flagged for a closer look

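S100A6, a calcium-binding partner of annexins, was higher in both APE1 lines without doxycycline (0.60 log2) and lower in both with it (-0.16). SMUG1, a uracil DNA glycosylase, went the other way, at -0.24 without doxycycline and 0.09 with it. For these 2 genes the difference between the states was not tested.

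Among the rows left out for a low mean, TASP1 and NAP1L3 were higher in both APE1 lines. TASP1 differed by 1.03 without and 0.47 with doxycycline, and NAP1L3 by 1.41 and 0.86.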

How the results depend on the processing

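No paired analysis was possible because each group is 1 averaged column without replicate numbers; the doxycycline state is a term of the limma fit, which without it called 239 and 573 rows. Of 916 values of 107 named genes under the alternatives, 78 moved by more than the residual SD of 0.15 log2. Of the 86 genes at or past 1.5-fold 0 changed sign, and of the other 21 genes 7 (FBXL21P, GPR78, HPD, LLPH, RPL41, SPCS3 and TNFRSF13C) changed sign when 1 line was left out. All 88 higher and all 396 lower rows past 1.5-fold had the same sign in both lines, so leaving out a line could not reverse them. The other alternatives reuse the same columns, so the lack of sign changes is no check on these 86 genes. Further, of 277 medians of lists and chromosomes 11 moved by more than that. Row counts below are given as higher and lower. With no row filter, the uninduced difference had 156 and 613 rows past 1.5-fold and the neuronal median was 0.13. With the filter at the 50th percentile, 189 uninduced and 395 treated rows were lower, limma called 333 lower, the medians were -0.44 (epithelial), 0.36 (blood) and 0.37 (p53), 4 epithelial members were lower, and of the ERK members 0. Both filters change the genes counted and the median that is subtracted. Differences as deposited gave 36 and 658 uninduced rows and 90 treated higher rows, and limma called 23 and 367. With a 2-fold limit the uninduced counts were 12 and 100, the treated 15 and 147, and the lower members 4 (epithelial), 3 (ATF4) and 3 (ERK).

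Leaving out either line, with the remaining APE1 column assumed to vary like the others, gave 125 to 228 higher and 341 to 597 lower uninduced rows and 155 to 262 treated higher rows. The larger uninduced counts were without the ubAPE1 line and the largest treated count was without the wtAPE1 line. The medians ranged over 0.079 to 0.27 (kidney), -0.0089 to 0.34 (blood), -0.47 to -0.16 (ERK), 0.22 to 0.58 (cancer-testis) and -0.20 to 0.047 (replication and mitosis), the higher value being without the ubAPE1 line except for replication and mitosis. Limma then called 77 and 307 rows without the wtAPE1 line and 1195 and 1101 without the ubAPE1 line. It called 28 and 155 in the uninduced columns alone (181 of the 927 calls shared), 1211 and 1471 in the treated columns alone, and 29 and 155 with a further term for doxycycline in the APE1 lines. The cause of these changes was not tested. The number of columns, and low levels near the row limit, bound the precision.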

Other observations

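Some genes outside the lists, chosen after their values were seen, differed in the same direction as a gene of the same family. HLA-DPA1 and HLA-DPB1, which encode the chains of an MHC class II molecule, were higher in the uninduced APE1 lines by 0.66 and 0.80 log2, and by 0.76 and 0.71 with doxycycline. CIITA, the class II transactivator, differed by 0.22. The histone genes H2AC16 and H2AC8 were lower, at -1.40 and -1.38; histone genes are near-identical copies, so their probes may share signal.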
